A study of Mus musculus with 6 samples.

Results

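The mouse genes for the proteins of the cytosolic ribosome were followed in RNA-sequencing libraries of sorted macrophages. Members were all listed genes whose symbol begins with Rpl or Rps and a digit, together with Rplp0, Rplp1, Rplp2 and Rpsa, without the kinase genes whose symbols begin with Rps6k and without symbols that contain -ps. This rule gave 87 of the 21936 listed genes and used no expression value. Of these, 77 encode ribosomal proteins proper, called core genes here, 46 of the large subunit and 31 of the small subunit. A further 8 are paralogs (Rpl3l, Rpl7l1, Rpl10l, Rpl22l1, Rpl36al, Rpl39l, Rps27l and Rps27rt), and 2 match the symbols without encoding a ribosomal protein (Rps19bp1 and Rps23rg1). The 3 libraries labelled CKO are given as macrophages of ALKBH5flox/flox, Lyz2-Cre, APOE-/- mice, and the 3 labelled WT as macrophages of ALKBH5flox/flox, APOE-/- mice. All mice had a high-fat diet for 4 months, and both groups thus carried the loxP-flanked Alkbh5 gene and the Apoe deletion. Alkbh5 encodes an RNA demethylase that acts on N6-methyladenosine in mRNA. Lyz2-Cre places Cre recombinase under the lysozyme gene, which is active in macrophages and in other myeloid cells such as neutrophils, so deletion is not limited to macrophages. The labels give neither the sort markers nor the tissue, the age or the number of mice behind a library.

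Ribosomal proteins assemble with ribosomal RNA in the nucleolus into a small subunit, which reads the mRNA, and a large subunit, which joins amino acids. Their genes are among the most actively transcribed in most cells, and free copies of the proteins are degraded. In mammals their mRNAs typically begin with a cytosine followed by a run of pyrimidines, the 5′ terminal oligopyrimidine (TOP) tract, through which the kinase mTORC1 and the RNA-binding protein LARP1 control their translation and stability as a class. Activated macrophages make large amounts of cytokines and other secreted proteins, which draws on their ribosomes.

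The letters at annotated starts were searched for this tract. Of the 77 core genes, 57 had a promoter entry from RefSeq on build GRCm38.p6. Each line gives the 20 bases before the annotated start and the 20 bases from it, on the strand of the gene. Capitals mark a TOP-like run, here a C within 5 bases of the start followed by at least 4 further pyrimidines. Shown are core genes with a long run (Rpl27a at chr7:109519175-109519214, Rpl14 at chr9:120571497-120571536, both on the plus strand, and Rps6 at chr4:86857348-86857387 on the minus strand), the gene with the largest decrease (Rpl10a, first listed start, chr17:28328451-28328490, plus strand), the core gene with the smallest decrease past the threshold (Rpl41, chr10:128549149-128549188, minus strand) and the 2 core genes that did not pass it (Rpl13a at chr7:45128726-45128765 and Rps10 at chr17:27635225-27635264, both on the minus strand).
Rpl27a: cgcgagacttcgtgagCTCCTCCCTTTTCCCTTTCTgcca
Rpl14: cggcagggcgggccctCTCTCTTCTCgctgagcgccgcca
Rps6: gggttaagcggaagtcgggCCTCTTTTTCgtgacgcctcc
Rpl10a: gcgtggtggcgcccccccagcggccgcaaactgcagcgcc
Rpl41: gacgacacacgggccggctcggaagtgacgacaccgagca
Rpl13a: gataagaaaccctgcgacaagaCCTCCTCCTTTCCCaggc
Rps10: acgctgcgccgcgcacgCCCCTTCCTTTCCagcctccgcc

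Shown next are Rps27 (chr3:90213629-90213668, minus strand), the parent gene of Rps27l, and paralogs. The paralogs are Rps27l (first listed start, chr9:66946066-66946105, plus strand), Rpl7l1 (chr17:46782637-46782676, minus strand) and Rpl22l1 (chr3:28805488-28805527, plus strand). The parents of Rpl7l1 and Rpl22l1, which are Rpl7 and Rpl22, are not shown.
Rps27: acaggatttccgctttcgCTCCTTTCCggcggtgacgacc
Rps27l: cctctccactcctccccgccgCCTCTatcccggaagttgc
Rpl7l1: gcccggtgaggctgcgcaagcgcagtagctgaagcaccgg
Rpl22l1: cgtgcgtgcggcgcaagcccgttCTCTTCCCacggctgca

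The libraries held 15422154 to 18418903 reads assigned to genes, and within each group the libraries differed by more than counting noise. Of 3 genes that bear on the labels, Alkbh5 and Apoe went against them and Lyz2 did not, so each group is named by its label only. Alkbh5 had 9.15, 8.61 and 8.5 FPKM in the libraries labelled CKO, against 3.77, 3.95 and 3.88 FPKM in those labelled WT (log2 fold change 1.00, limma adjusted p = 4.78e-09). Whether the listed reads of Alkbh5 fall in the loxP-flanked exons cannot be seen from gene totals. Apoe averaged 95 FPKM in the libraries labelled CKO and 1635 FPKM in those labelled WT, although both groups are labelled Apoe-deficient. Lyz2, which the commonly used Lyz2-Cre allele disrupts, averaged 6556 FPKM in the libraries labelled CKO and 15116 FPKM in those labelled WT (log2 fold change -1.20, limma adjusted p = 2.51e-10), the direction that the label gives. All 14 listed macrophage markers passed the filter on low values, 8 with lower and 6 with higher levels in the libraries labelled CKO, although Cd163 stayed under 1 FPKM in the libraries labelled CKO and Marco in those labelled WT. Separate animals behind the libraries of a group are not stated, so every p-value here rests on a spread that may be technical.

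Nearly all ribosomal protein genes were lower in the libraries labelled CKO, by a little over 2-fold at the median. FPKM are reads per kilobase of listed gene length, scaled to the total of reads assigned to genes. Differences are labelled CKO minus labelled WT on the log2(FPKM + 1) scale, which understates the change of low genes. Of the 77 core genes, 76 had at least 1 FPKM in at least 3 libraries and were tested, and 74 fell, 0 rose and 2 (Rpl13a and Rps10) did not pass an adjusted p of 0.05 in limma. Of all 87 members, 81 were tested, 76 fell and 3 rose (Rpl7l1, Rps27l and Rps19bp1). Many other genes differed as well: 50.5% of all 9953 tested genes passed the threshold lower in the libraries labelled CKO and 30.5% higher. Median-of-ratios scaling, which raises the median of all tested genes by 0.15, gave 38.9% lower and 40.8% higher, and quantile normalization gave 43.5% lower and 35.9% higher. The members' counts were 76 lower and 3 higher under both scalings. In bulk RNA, fewer cells of a type and less RNA per cell cannot be told apart.

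Most core genes changed by a similar amount. The median log2 fold change was -1.15 over the 76 tested core genes, with quartiles at -1.34 and -0.94, against a median of -0.14 over all tested genes. Under median-of-ratios scaling the core median was -0.97 and under quantile normalization -1.23. Large and small subunit genes had nearly the same median, -1.15 over 45 tested large subunit genes and -1.16 over 31 small subunit genes. In 76 members every library labelled CKO was below every library labelled WT, in 3 every one was above, and in 2 the groups overlapped. The same separation was found in 51.3% of all tested genes for lower and 31.2% for higher.

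**Figure D1:**
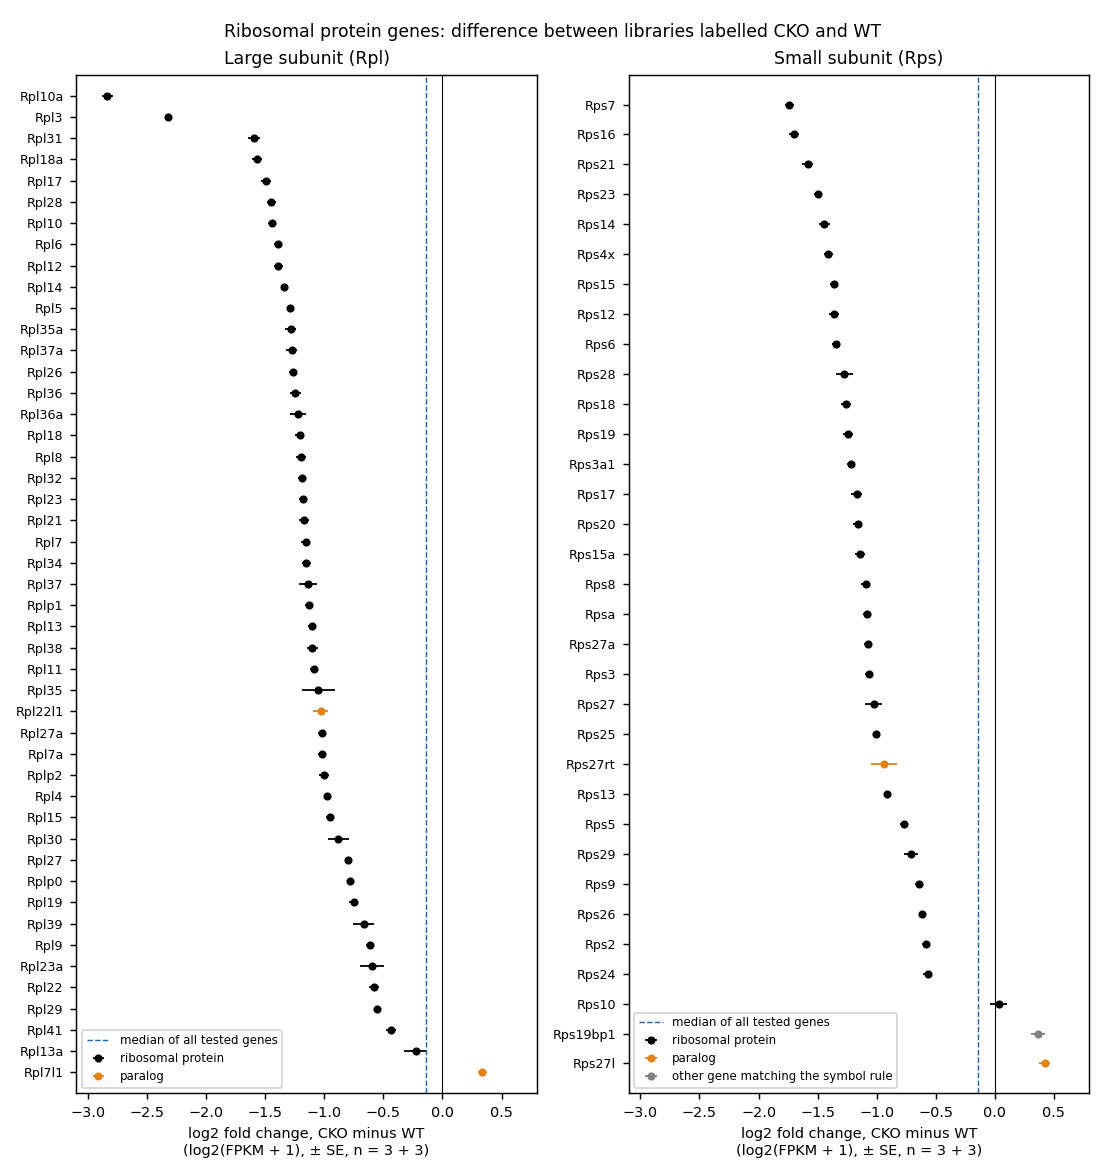
Log2 fold change of the tested members, 1 of which is not drawn, labelled CKO minus labelled WT on the log2(FPKM + 1) scale, with its standard error (3 libraries per group), for large subunit genes on the left and small subunit genes on the right. Black points are ribosomal proteins, orange points paralogs, the grey point is Rps19bp1, and the dashed line is the median of all tested genes (-0.14): most points lie between -0.5 and -1.5, Rpl10a and Rpl3 lie furthest left, and Rpl13a and Rps10 lie nearest 0 among the core genes.

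Rpl10a stood furthest from the rest. It encodes uL1, the protein of the mobile stalk at the exit side of the large subunit (chr17:28328471-28331033, mm10). Rpl10a had 22.5, 22.5 and 25.7 FPKM in the libraries labelled CKO, against 177, 172 and 174 FPKM in those labelled WT. All libraries labelled CKO were far below all labelled WT, with a log2 fold change of -2.84 ± 0.047 (SE, adjusted p = 4.53e-13). Rpl3, which encodes a core protein near the peptidyl transferase centre, came next (chr15:80077791-80091868). Rpl3 had 50.9, 50.2 and 50.2 FPKM in the libraries labelled CKO, against 258, 257 and 255 FPKM in those labelled WT. The groups were separated by many times the spread within either (log2 fold change -2.33, SE 0.026, limma adjusted p = 2.27e-14). Neither gene shares exon bases with another annotated gene, but 62.6% of the 50-base stretches of Rpl10a transcripts and 67.1% of those of Rpl3 also occur in transcripts of other genes, so reads may have been split among copies and the levels are uncertain to that extent.

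Other large subunit proteins changed by amounts nearer the median. Rpl31, at the rim of the exit tunnel, had 54.5, 57.9 and 61.7 FPKM in the libraries labelled CKO, against 166, 183 and 183 FPKM in those labelled WT. It fell with a log2 fold change of -1.6 ± 0.051 (SE, adjusted p = 9.39e-11), without overlap. For Rpl4, which lines the exit tunnel, the values were 246, 251 and 261 FPKM in the libraries labelled CKO, against 504, 505 and 482 FPKM in those labelled WT. Rpl4 fell without overlap, with a log2 fold change of -0.98 ± 0.031 (SE, adjusted p = 8.60e-11). Rpl5 and Rpl11 bind the 5S ribosomal RNA, and the complex can hold the p53 ubiquitin ligase Mdm2 when ribosome assembly stalls. Rpl5 had 62.0, 63.4 and 66.4 FPKM in the libraries labelled CKO, against 157, 155 and 159.5 FPKM in those labelled WT. Rpl11 had 47.4, 45.8 and 48.2 FPKM in the libraries labelled CKO, against 99.0, 101 and 104 FPKM in those labelled WT. Both fell without overlap between groups, Rpl5 with a log2 fold change of -1.29 ± 0.032 (SE, adjusted p = 1.21e-11) and Rpl11 with -1.09 ± 0.033 (SE, adjusted p = 5.89e-11). Of the coding transcript bases of Rpl5 42.5%, and of those of Rpl31 28.0%, as well as 18.1% of those of Rps27a, lie opposite exons of a gene on the other strand, and whether the authors counted reads by strand is not given in the sources used here.

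The stalk that recruits elongation factors to the large subunit is built from Rplp0, Rplp1 and Rplp2. Rplp1 had the highest level of all members per listed length in both groups, with 556, 566 and 595 FPKM in the libraries labelled CKO, against 1254, 1256 and 1251 FPKM in those labelled WT. The libraries labelled CKO had an SD of 20.4 FPKM and those labelled WT one of 2.37 FPKM (n = 3 each), and the groups were far apart (log2 fold change -1.13, SE 0.029, limma adjusted p = 1.39e-11). Rplp2 had 56.8, 63.9 and 64.2 FPKM in the libraries labelled CKO, against 121, 126 and 125 FPKM in those labelled WT. Rplp0, the base of the stalk, had 405, 422 and 412 FPKM in the libraries labelled CKO, against 708, 708 and 715 FPKM in those labelled WT. All 3 fell, Rplp2 with -1.0 ± 0.045 (SE, adjusted p = 2.17e-09) and Rplp0 with -0.78 ± 0.025 (SE, adjusted p = 1.10e-10). Whether the 3 stalk genes differ from each other in their change was not tested. Rpl41, the smallest ribosomal protein, had 288, 293 and 312 FPKM in the libraries labelled CKO, against 379.6, 412 and 415 FPKM in those labelled WT. The groups did not overlap, and this was the smallest decrease among core genes past the threshold (log2 fold change -0.43, SE 0.041, limma adjusted p = 1.44e-06). It was -0.25 under median-of-ratios scaling and -0.68 under quantile normalization, lower in both.

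Among small subunit genes, Rps7, a protein of the body of the subunit, and Rps16, one of its head, were among those with large decreases. Rps7 had 54.2, 56.9 and 59.0 FPKM in the libraries labelled CKO, against 184, 196 and 196 FPKM in those labelled WT. Rps16, whose tail reaches the P-site tRNA, had 69.9, 78.2 and 76.9 FPKM in the libraries labelled CKO, against 239, 254 and 245.5 FPKM in those labelled WT. No library labelled CKO reached the lowest library labelled WT in either gene. The log2 fold changes were -1.74 ± 0.039 (SE, adjusted p = 4.54e-12) for Rps7 and -1.70 ± 0.042 (SE, adjusted p = 1.20e-11) for Rps16.

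By the mean over all 6 libraries, the most abundant small subunit genes per listed length were Rps3a1, Rps2 and Rps15, while in the libraries labelled WT alone Rps4x (411 FPKM) stood beside Rps2 (409 FPKM). Rps3a1, near the mRNA exit, had 339.7, 347 and 376 FPKM in the libraries labelled CKO, against 824, 829 and 826 FPKM in those labelled WT. Rps2, near the mRNA entry, had 260.3, 276 and 284 FPKM in the libraries labelled CKO, against 411, 414 and 403 FPKM in those labelled WT. For Rps15, near the decoding site, the values were 176, 188 and 192 FPKM in the libraries labelled CKO, against 477, 475 and 481 FPKM in those labelled WT. All 3 fell with no overlap, Rps3a1 with -1.2 ± 0.035 (SE, adjusted p = 4.23e-11), Rps15 with -1.36 ± 0.033 (SE, adjusted p = 9.27e-12) and Rps2 with a log2 fold change of -0.58 ± 0.033 (SE, adjusted p = 1.71e-08).

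Small subunit genes with known roles in signalling or outside protein synthesis fell as well. Rps6, the substrate of the S6 kinases downstream of mTORC1, had 148, 153 and 160.1 FPKM in the libraries labelled CKO, against 391, 393 and 392 FPKM in those labelled WT. It fell in every library labelled CKO (log2 fold change -1.35, SE 0.031, limma adjusted p = 6.17e-12). Rps27a, which is made as a fusion with ubiquitin, had 95.5, 97.0 and 104 FPKM in the libraries labelled CKO, against 213, 207 and 208 FPKM in those labelled WT, and fell with a log2 fold change of -1.07 ± 0.035 (SE, adjusted p = 1.30e-10). Rpsa, also described as a laminin receptor, had 128, 128 and 137 FPKM in the libraries labelled CKO, against 280.0, 281 and 274 FPKM in those labelled WT. Its groups were likewise apart, with a log2 fold change of -1.08 ± 0.032 (SE, adjusted p = 5.27e-11).

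**Figure D2:**
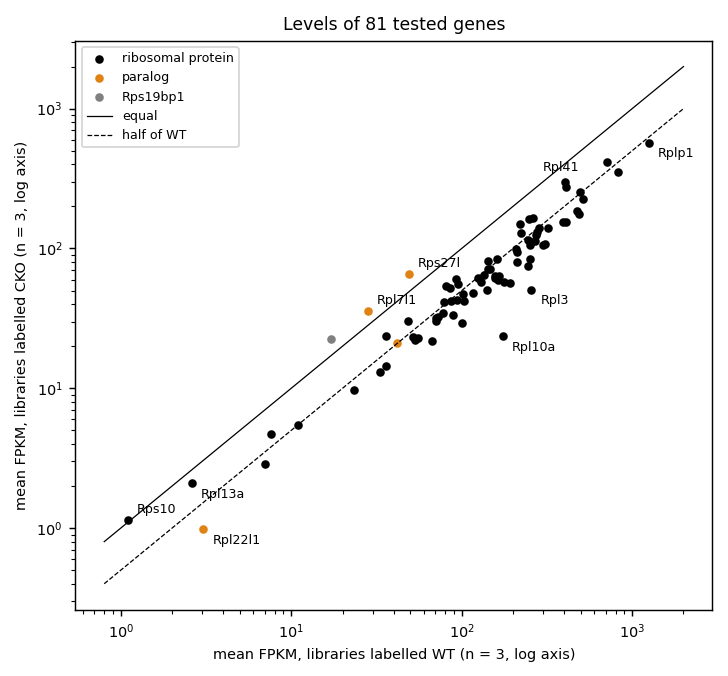
Mean FPKM of the 81 tested members in the 3 libraries labelled CKO (vertical, log axis) against the 3 labelled WT (horizontal, log axis). The solid line marks equal means and the dashed line 0.5 times the mean of the libraries labelled WT. Most core genes follow the dashed line from Rpl35, near 7.06 FPKM in the libraries labelled WT, to Rplp1 at 1254 FPKM. Rpl10a and Rpl3 lie well below the dashed line, and Rps27l, Rpl7l1 and Rps19bp1 lie above the solid line. The core gene Rps10 lies just above the solid line (1.14 FPKM labelled CKO, 1.10 FPKM labelled WT).

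The order of levels within the family was largely kept. Across the 76 tested core genes the Spearman correlation of mean FPKM between the libraries labelled CKO and those labelled WT was 0.943, a description across genes, which share their libraries and are not replicates. Among core genes the fold change had a Spearman correlation of 0.052 with listed length and -0.127 with mean FPKM, and a Pearson correlation of -0.277 with log mean FPKM (n = 76 genes). The 5 tested core genes with a mean under 15 FPKM had a median of -0.60. Of the 76 tested core genes, 8 had a log2 fold change below -1.5, 65 lay between -1.5 and -0.5, and 3 lay above -0.5. Members also varied together between libraries of a group. The library labelled CKO 3 was the highest of its group in 58 of the 76 core genes and CKO 1 the lowest in 51, and of those labelled WT, WT 2 was the highest in 40 and WT 1 the lowest in 45. This spread was small, with a median coefficient of variation of 4.35% in the libraries labelled CKO and 2.32% in those labelled WT.

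The 2 core genes that did not pass were both at very low listed levels. Rpl13a, which in human monocytes also silences translation as part of the interferon-activated GAIT complex, had 2.32, 2.30 and 1.65 FPKM in the libraries labelled CKO, against 2.52, 3.01 and 2.30 FPKM in those labelled WT. The groups overlapped (log2 fold change -0.23, SE 0.099, limma adjusted p = 0.0528). Leaving out 1 library in turn gave a lower value past the threshold for Rpl13a without CKO replicate 1 (adjusted p = 0.0398), without CKO replicate 2 (0.0387) and without WT replicate 3 (0.0289), so this call rests on single libraries. Rps10, which in human cells is marked with ubiquitin when ribosomes collide, had 1.11, 1.01 and 1.31 FPKM in the libraries labelled CKO, against 1.01, 1.06 and 1.2 FPKM in those labelled WT. Its groups overlapped (log2 fold change 0.03, SE 0.073, limma adjusted p = 0.704), and without CKO replicate 3 the sign turned (-0.02, adjusted p = 0.771). Both genes share exon bases with a longer gene on the same strand in the GENCODE M21 annotation, 53.3% of the bases of the coding transcripts of Rpl13a with Gm45713 and 28.2% of those of Rps10 with Gm49804. No other core gene shares exon bases on its own strand, and Gm45713 and Gm49804 are listed at 0 in all libraries. The part of shared exons in these low values was not tested.

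Core genes at low level were 6 in all, with a mean under 15 FPKM, and the other 4 share much of their sequence with other transcripts. Rpl24, a protein at a bridge between the subunits, was below the filter, with 2, 6 and 3 reads in the libraries labelled CKO and 2, 4 and 1 reads in those labelled WT, where 3 reads correspond to 0.163 to 0.195 FPKM for a gene of 1 kb. Of the 50-base stretches of its transcripts, 81.7% occur in transcripts of other genes. This share was 95.1% for Rpl35, 85.7% for Rpl23a and 72.8% for Rpl30, against a median of 38.5% over core genes. The search covered either strand, so these shares can include bases that lie opposite exons of a gene on the other strand. Such bases were 68.3% of the coding transcript of Rpl35 and 55.4% of that of Rpl23a. These 3 genes were chosen after their values were seen. Rpl35 averaged 2.89 FPKM in the libraries labelled CKO and 7.06 FPKM in those labelled WT, Rpl23a 4.68 FPKM (labelled CKO) and 7.66 FPKM (labelled WT), and Rpl30 5.43 FPKM (labelled CKO) and 10.9 FPKM (labelled WT), and all 3 fell in limma. Their low levels are therefore uncertain, and the part of shared sequence was not tested.

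The median change was similar in members with much and with little shared sequence, while the upper quartiles differed. Of the 29 members with at least 50% of their 50-base stretches in other genes, 28 were tested and all 28 fell. Their median was -1.15, with quartiles at -1.35 and -1.03. Of the 58 members with less, 53 were tested, 48 fell and 3 rose. The median of these 53 was -1.13, with quartiles at -1.28 and -0.71. The 3 that rose are Rpl7l1, Rps27l and Rps19bp1, none of them a core gene, so this contrast mixes shared sequence with gene class. Over the tested core genes the fold change had a Spearman correlation of -0.199 with the shared percentage. Among genes described above the share was 85.4% for Rpl5, 84.6% for Rps6, 71.0% for Rps3a1 and 60.0% for Rplp1. The share of Rpl5 can include its bases opposite exons of a gene on the other strand. Of the 7 listed rows with pseudogene symbols, which the rule leaves out, 3 were above the filter and all 3 were lower. Rpl9-ps6, the most abundant of them, averaged 33.8 ± 2.63 FPKM in the libraries labelled CKO and 56.7 ± 3.53 FPKM in those labelled WT (SD, n = 3 each, log2 fold change -0.73, limma adjusted p = 3.69e-07). Rpl10-ps3 and Rps18-ps5 were under 5 FPKM in every library, with log2 fold changes of -0.87 and -0.99.

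The paralogs did not move as a class. Rps27l, a paralog of Rps27 that p53 induces in human cells, had 61.0, 69.2 and 67.5 FPKM in the libraries labelled CKO, against 47.4, 48.1 and 51.3 FPKM in those labelled WT. The libraries labelled CKO were all above those labelled WT (log2 fold change 0.42, SE 0.049, limma adjusted p = 8.96e-06). Rpl7l1, a paralog of Rpl7 found in human large subunit precursors, had 37.2, 34.9 and 35.4 FPKM in the libraries labelled CKO, against 27.8, 28.9 and 27.9 FPKM in those labelled WT. It was also higher in every library labelled CKO (log2 fold change 0.34, SE 0.037, limma adjusted p = 6.04e-06). Rpl22l1, a paralog of Rpl22, had 0.910, 1.04 and 0.988 FPKM in the libraries labelled CKO, against 2.81, 3.17 and 3.17 FPKM in those labelled WT, and fell with a log2 fold change of -1.03 ± 0.063 (SE, adjusted p = 3.40e-08). At this low level the value moved to -1.54 with a pseudocount of 0.1 and -1.62 with voom on the recovered reads. Rpl22l1 passed the filter through the libraries labelled WT, since of those labelled CKO only CKO 2 reached 1 FPKM. Rps27rt, a retrotransposed copy of Rps27 that shares 91.1% of its 50-base stretches with other genes, had 19.2, 19.6 and 24.9 FPKM in the libraries labelled CKO, against 35.4, 48.6 and 40.9 FPKM in those labelled WT, and fell with a log2 fold change of -0.94 ± 0.11 (SE, adjusted p = 1.11e-05).

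Set against the parent gene within each library, Rps27l was 160%, 157% and 156% of Rps27 in the libraries labelled CKO, against 62.1%, 52.9% and 55.9% in those labelled WT, in FPKM. The paralog was thus above its parent in every library labelled CKO and below it in every library labelled WT, a difference of 1.45 in the log2 ratio. Rpl7l1 was 41.4%, 37.5% and 36.0% of Rpl7 in the libraries labelled CKO, against 13.7%, 13.4% and 13.2% in those labelled WT, a difference of 1.49. For Rpl22l1 against Rpl22 the shares were 3.99%, 4.45% and 4.05% in the libraries labelled CKO and 8.33%, 8.59% and 8.64% in those labelled WT, a difference of -0.45 that became -0.94 with a pseudocount of 0.1. The percentages are of FPKM, and the log2 ratios of FPKM + 1, which shrinks the difference for a gene as low as Rpl22l1. These 3 ratios did not overlap between groups, and the exact two-sided permutation test gave p = 0.1 for each, the smallest that 3 against 3 libraries allow (adjusted p = 0.133 over the 4 pairs tested). The ratio of Rps27rt to Rps27 overlapped between groups, with a difference of 0.09 (exact permutation p = 0.6). The remaining paralogs were near or at 0. Rpl3l, known from striated muscle, and Rpl36al stayed under 0.5 FPKM in every library. Of the coding transcript bases of Rpl36al, 24.5% are shared on the same strand with Gm49383, which is listed at 0. The part of these shared exons in its low value was not tested. Rpl39l, known from testis, lay between 0.392 and 1.2 FPKM, and Rpl10l, known from testis, had 0 reads in all 6 libraries. Rps23rg1 also had 0 reads, and Rps19bp1, a nucleolar protein that binds Rps19, had 23.4, 22.8 and 21.1 FPKM in the libraries labelled CKO, against 17.1, 18.6 and 15.9 FPKM in those labelled WT and rose with a log2 fold change of 0.36 ± 0.058 (SE, adjusted p = 1.36e-04).

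**Figure D3:**
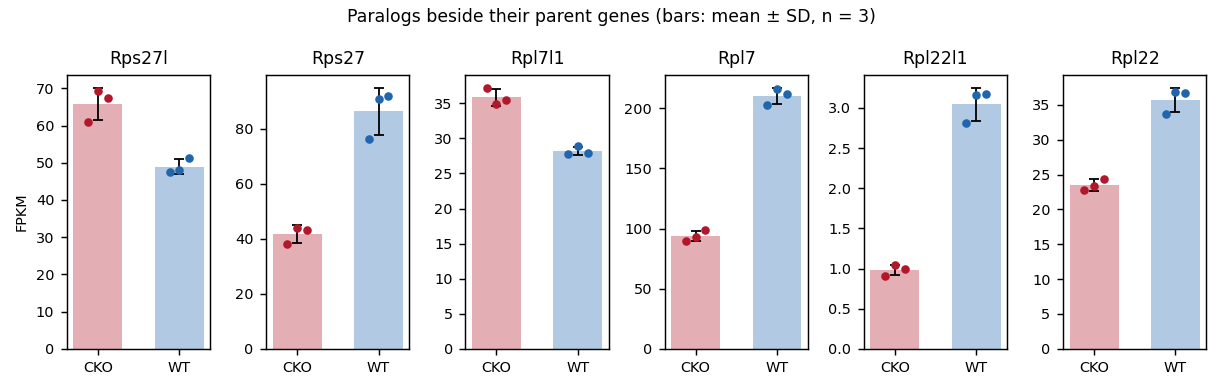
FPKM of 3 paralogs, each left of its parent gene, in the 3 libraries labelled CKO (red) and the 3 labelled WT (blue), with points for libraries, bars from 0 for means and error bars for SD. Rps27l and Rpl7l1 are higher in the libraries labelled CKO while Rps27 and Rpl7 are lower, and Rpl22l1 and Rpl22 are both lower.

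As a share of all assigned reads, the 87 members took 1.23%, 1.27% and 1.32% in the libraries labelled CKO, against 2.74%, 2.79% and 2.77% in those labelled WT. The groups did not overlap, with means of 1.27% ± 0.0427 in the libraries labelled CKO and 2.77% ± 0.0248 in those labelled WT (SD, n = 3 each), and 95% Wilson intervals, which cover counting error only, ran from 1.23% to 1.24% in the lowest and from 1.31% to 1.32% in the highest library labelled CKO, and from 2.74% to 2.75% and from 2.78% to 2.80% in those labelled WT. The exact two-sided permutation test gave p = 0.1, the smallest possible. Leaving out the 20 other genes with most reads, the share was 1.52% in the libraries labelled CKO and 3.28% in those labelled WT. Ribosomal proteins of the mitochondrion, encoded by Mrpl and Mrps genes, took a larger share in the libraries labelled CKO, with 0.205% ± 0.00288 in the libraries labelled CKO and 0.183% ± 0.000625 in those labelled WT. Of 76 tested mitochondrial ribosomal protein genes, 15 fell, 34 rose and 27 did not pass, with a median log2 fold change of 0.10, and under median-of-ratios scaling 10 fell and 47 rose. Reads of the mitochondrial genome took 0.920% of the libraries labelled CKO and 1.32% of those labelled WT.

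**Figure D4:**
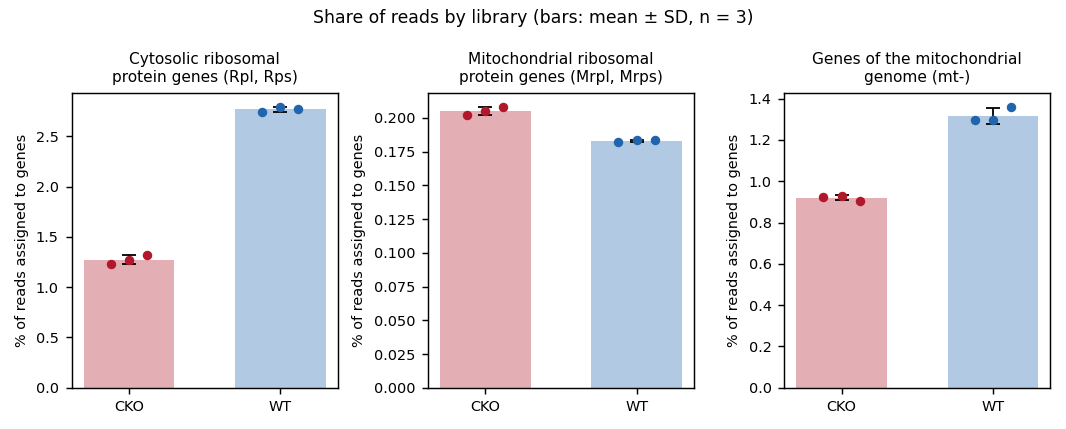
Share of assigned reads, in percent, on cytosolic ribosomal protein genes, on mitochondrial ribosomal protein genes and on the mitochondrial genome, in the 3 libraries labelled CKO (red) and the 3 labelled WT (blue), with bars from 0 for means and error bars for SD (n = 3). The cytosolic share is 1.27% in the libraries labelled CKO against 2.77% in those labelled WT, while the mitochondrial ribosomal protein share is 0.205% in the libraries labelled CKO against 0.183% in those labelled WT.

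Other short or abundant transcripts had medians near 0. Among genes under 2000 bases with a mean of at least 100 FPKM, the 26 members had a median log2 fold change of -1.19 and the 125 other genes one of 0.02, with 47.2% of the others called lower. Under 1000 bases the 12 members had a median of -1.16 and the 214 other genes one of 0.01. At a mean of at least 300 FPKM the 9 members had a median of -1.13 and the 96 others one of 0.17.

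**Figure D5:**
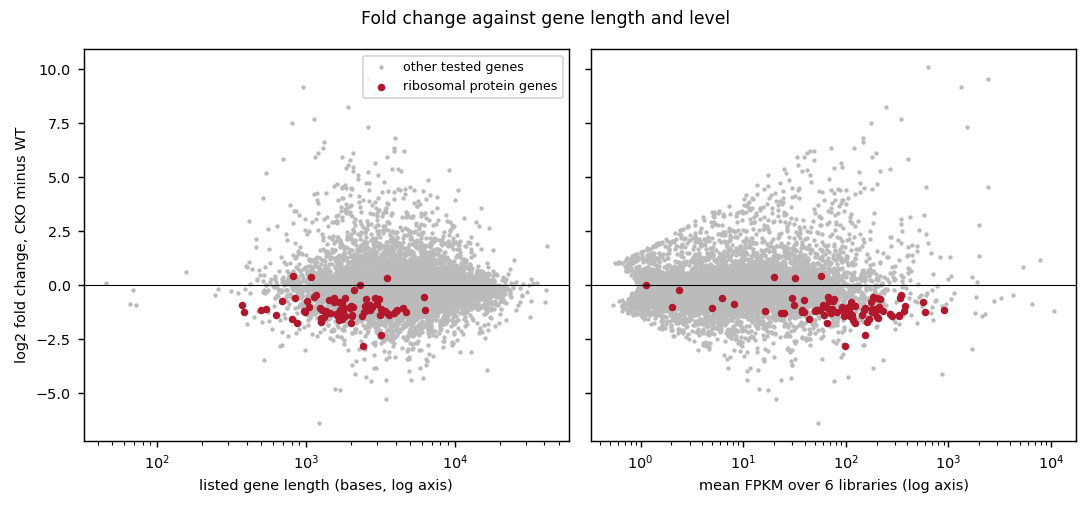
Log2 fold change, labelled CKO minus labelled WT, of the 81 tested members (red) and of the other tested genes (grey), against listed gene length in bases (left, log axis) and mean FPKM over 6 libraries (right, log axis). The members form a band around -1.13 across lengths and levels, while the other genes scatter on both sides of 0 at the same lengths and levels.

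Features of the gene, beside the protein it encodes, were compared as descriptions. The TOP-like run printed above for Rpl27a and others was present at a listed start of 27 of the 57 core genes with a promoter entry (47.4%), against 21.2% of all 27025 genes with one and 23.8% of the other tested genes. Core genes with the run had a median log2 fold change of -1.05 and those without it -1.2. Rpl10a, with the largest decrease, has no such run at either listed start, and Rpl13a and Rps10, which did not pass, each have one. An annotated start can lie some bases from the start used. No match says only that no such run begins with a C within 5 bases of an annotated start. Pyrimidine runs further off, as in the windows of Rps25 and Rpl4, were not counted, so genes without a match can still have the tract. The letters CCGGAAG, searched on both strands over 250 bases before and 50 bases after the start, occurred in 42.1% of core promoters, 9.93% of all promoters and 22.2% of those of other tested genes, and AAGATGG in 15.8%, 7.28% and 9.14%. In the same order GGGCGG was found in 61.4%, 38.2% and 69.7%, TATAAA in 10.5%, 15.7% and 8.14%, and CACGTG in 10.5%, 8.09% and 12.4%. None of these letter strings contains another. Many ribosomal protein genes carry small nucleolar RNAs, guides of ribosomal RNA modification, in their introns. In GENCODE M21, 30 of the 77 core genes (39.0%) contain at least 1 on their own strand, 58 in all, against 1.6% of other tested genes. The median log2 fold change was -1.15 in core genes with and without them.

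Ribosomal protein genes outside the symbol rule fell too. Rack1, a scaffold on the small subunit, averaged 60.2 ± 3.69 FPKM in the libraries labelled CKO and 157 ± 3.61 FPKM in those labelled WT (log2 fold change -1.37). Fau, which encodes a small subunit protein fused to a ubiquitin-like domain, had a log2 fold change of -0.76. Of 22 further translation genes known for TOP mRNAs, all tested, 20 fell and 2 (Vim at 0.07 and Hnrnpa1 at 0.18) rose, with a median of -0.87. Vim turned lower under quantile normalization (-0.20). The elongation factor Eef1a1 had 377, 385 and 412 FPKM in the libraries labelled CKO, against 3089.8, 3057 and 2997 FPKM in those labelled WT, with no overlap and a larger decrease than any member (log2 fold change -2.96, SE 0.033, limma adjusted p = 2.27e-14). Eef1b2 (-1.54), the initiation factor Eif4b (-1.51) and Tpt1 (-1.29) also fell.

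Genes that control or build ribosomes changed in both directions. Their shares lay near those of all tested genes, of which 50.5% fell and 30.5% rose with a median of -0.14. Of 14 genes of TOP and mTORC1 control, 7 fell and 5 rose, with a median of -0.17. The cap-binding protein Eif4e averaged 24.7 FPKM in the libraries labelled CKO and 10.3 FPKM in those labelled WT, a log2 fold change of 1.19. Its inhibitor Eif4ebp1 averaged 49.8 FPKM in the libraries labelled CKO and 15.9 FPKM in those labelled WT (1.58), and a second inhibitor, Eif4ebp2, 14.7 FPKM in the libraries labelled CKO and 42.5 FPKM in those labelled WT (-1.47). Larp1 averaged 37.7 FPKM in the libraries labelled CKO and 22.9 FPKM in those labelled WT (0.69). Of 12 genes of RNA polymerase I, which makes ribosomal RNA, 6 fell and 3 rose. The polymerase subunits Polr1b (-0.49) and Polr1c (-0.54) and the factors Ubtf (-0.52) and Taf1d (-0.84) fell. Of 36 ribosome assembly factors, 18 fell and 7 rose, with a median of -0.16. Nucleostemin, Gnl3 (-1.04), and nucleolin, Ncl (-0.57), fell, and the late factors Sbds (0.84) and Eif6 (1.05), which act together on new large subunits, rose. Under median-of-ratios scaling these counts became 3 lower and 5 higher for control genes, 5 and 5 for polymerase I genes, and 10 and 10 for assembly factors, whereas the core genes kept 74 lower and 0 higher.

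Of 11 tested genes of ribosome rescue and stress sensing, 2 fell and 4 rose, where 50.5% of all tested genes fell and 30.5% rose. The ribotoxic stress kinase Map3k20 fell (-0.65), and the rescue factors Hbs1l (0.50) and Ascc3 (0.83) and the ribophagy receptor Nufip1 (0.51) rose. Under median-of-ratios scaling 1 fell and 6 rose. Of 6 genes that connect ribosomal proteins and growth with p53 and Myc, 4 fell and 2 rose, beside the same 50.5% and 30.5% of all tested genes. Mdm2, which the Rpl5 and Rpl11 complex binds, averaged 145 FPKM in the libraries labelled CKO and 31.2 FPKM in those labelled WT, a log2 fold change of 2.18. Mxd1, an antagonist of Myc, averaged 13.7 FPKM in the libraries labelled CKO and 3.9 FPKM in those labelled WT (1.58). The Myc antagonist Mnt (-1.27) and the p53 gene Trp53 (-0.51) fell.

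Markers of other cells moved with the groups as well. Summed over 16 neutrophil markers, levels were 278 to 286 FPKM in the libraries labelled CKO and 684 to 987 FPKM in those labelled WT, with 10 of 13 tested lower and 2 higher and Ly6g under 1 FPKM in all. Among all tested genes 50.5% were lower and 30.5% higher. Ngp, Ltf, Elane, Ctsg and Retnlg were under 1 FPKM in every library labelled CKO. They passed the filter only through the libraries labelled WT and so could only come out lower. The granule gene Ngp averaged 0.305 FPKM in the libraries labelled CKO and 108 FPKM in those labelled WT, whereas Lcn2, the larger part of the sum in the libraries labelled CKO, averaged 152 FPKM there and 21.7 FPKM in those labelled WT. The 14 macrophage markers summed to 9817 to 10254 FPKM in the libraries labelled CKO and 17270 to 19205 FPKM in those labelled WT, most of it Lyz2. B and plasma cell markers summed to 63.6 to 64.9 FPKM in the libraries labelled CKO and 86.1 to 89.4 FPKM in those labelled WT, with 4 of 12 tested, all 4 lower, Mzb1 at 0 and Ms4a1 and Pax5 under 1 FPKM in all libraries. Of the 4 tested, Jchain and Cd79b were under 1 FPKM in every library labelled CKO, so they too passed the filter only through those labelled WT. T and NK cell markers summed to 50.9 to 52.6 FPKM in the libraries labelled CKO and 87.7 to 91.7 FPKM in those labelled WT, with 3 of 15 tested, all 3 lower, and Cd3e, Cd3d and Cd3g under 1 FPKM in all. Of the 3 tested, Cd4 likewise passed only through the libraries labelled WT. Single genes carried these last 2 sums, Xbp1 with a mean of 61.1 FPKM in the libraries labelled CKO and 76.4 FPKM in those labelled WT, and Il7r with 48.4 FPKM in the libraries labelled CKO and 80.8 FPKM in those labelled WT. The genes singled out within these sums were chosen after their values were seen. Erythroid and platelet markers summed to 118 to 129 FPKM in the libraries labelled CKO and 181 to 198 FPKM in those labelled WT, with 4 of 12 tested, 3 of them lower, and Slc4a1 and Hba-a2 at 0. The platelet genes Ppbp and Pf4 made up most of this sum, and 8 of the 12 were under 1 FPKM in all libraries. Ppbp averaged 38.5 FPKM (labelled CKO) and 101 FPKM (labelled WT), and Pf4, which did not pass, 74.0 FPKM (labelled CKO) and 68.9 FPKM (labelled WT). Fibroblast and endothelial markers (42.4 to 43.5 FPKM in the libraries labelled CKO, 39.6 to 40.4 FPKM in those labelled WT) and dendritic cell markers (48.1 to 53.2 FPKM in the libraries labelled CKO, 48.9 to 51.9 FPKM in those labelled WT) each had 2 of 4 tested genes lower and 2 higher. Of the higher ones, Pecam1 was under 1 FPKM in every library labelled WT and passed the filter only through those labelled CKO. Eng averaged 33.7 FPKM (labelled CKO) and 12.6 FPKM (labelled WT), and Vwf 2.78 FPKM (labelled CKO) and 19.8 FPKM (labelled WT). For Ccr7 the means were 21.1 FPKM (labelled CKO) and 0.742 FPKM (labelled WT), and for Itgax 0.999 FPKM (labelled CKO) and 10.2 FPKM (labelled WT). These genes, Ppbp and Pf4 were also chosen after their values were seen. The part of these other cells in the difference of the ribosomal protein genes was not tested.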

How the data were processed

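RNA was sequenced from 6 libraries, 3 per label, with groups and replicate numbers taken from the sample titles. Per the file headers, the values the authors deposited are FPKM, in a table for each library. The submitters' processing notes name build mm10 and, without roles, the aligner HISAT2 2.1.0, the counter featureCounts 1.6.2, the read trimmer fastp 0.19.3 and other tools. The kit marks strand per the labels' protocols, and the setting used in counting is not given in the sources used here. FPKM times listed length was a whole multiple of a step, within 0.01 reads, for 100% of values. The reads recovered in this way served for depth, shares and 1 alternative test. Listed lengths equal the union of annotated exons in all 87 members and were a median of 2.01 times the longest coding transcript in core genes, which lowers FPKM of genes with many variants.

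The 9953 genes that reached 1 FPKM in 3 or more libraries entered limma 3.58.1 (R 4.3.3) on log2(FPKM + 1), with an intensity trend and the group as the only term, and Benjamini-Hochberg adjustment over all tested genes at 0.05. Same-numbered libraries did not deviate together (correlations 0.02, 0.01 and -0.04), so no pairing was used. Exact two-sided permutation tests over libraries were used for ratios and shares, where 3 against 3 cannot give a p under 0.1. Sequence sharing was the share of 50-base stretches of a gene's GENCODE M21 coding transcripts found, on either strand, in another gene's transcripts. Members and gene lists were chosen with earlier results of these data known. Named are the 6 tested members at each end of the fold changes, the 3 highest of each subunit, set genes of known role, all paralogs, every member not called or untested, and up to 4 genes of each other list with the smallest p; others are said to be chosen after their values were seen. Some genes that this rule names are not reported here. The fit was tested on simulated reads with known changes in a small part of the genes. It called 76% of genes changed 1.25-fold and 97.9% of those changed 1.5-fold, and 5.29% of its calls were false. In the data 81.1% of tested genes were called, a setting that the simulation does not cover. Python 3.11.15, pandas 2.3.3, numpy 2.4.6, scipy 1.17.1 and matplotlib 3.10.9 were used.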

Additional observations from a re-analysis of the deposited data

How the results depend on the processing

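The members' counts stayed within 1.5 times of 76 lower and 3 higher under both scalings, without the filter or the intensity trend, with pseudocounts of 0.1 and 0.5, with voom on the recovered reads and at a minimum mean of 5 FPKM. Their median moved to -0.95 under median-of-ratios scaling and -1.21 under quantile normalization. This minimum left fewer genes to test and 3185 called lower among all genes. Restricted to members with under 50% of 50-base stretches shared, a restriction chosen after seeing the data that leaves 53 tested genes, 48 fell. The difference in read share, -1.5 percentage points, was -1.76 without the 20 most abundant other genes. With the replicate block 77 members were lower, 5023 of all genes were lower and 3018 higher, and Rpl13a passed (adjusted p = 0.0123); no other named member changed its call. Leaving out each library gave 4853 to 4952 genes lower and 2910.0 to 2961 higher, 76 to 77 members lower and 3 higher, a member median of -1.17 to -1.11, a share difference of -1.52 to -1.47, and differences in the log2 ratio of FPKM + 1 of 1.44 to 1.54 (Rpl7l1), -0.48 to -0.43 (Rpl22l1), 1.40 to 1.51 (Rps27l) and 0.00 to 0.18 (Rps27rt). Of the named members' fold changes under alternatives, 382 kept direction and call, 4 (all Rpl13a) passed the threshold, and Rps10 reversed without CKO replicate 3 (-0.025, within a range of -0.025 to 0.077 over single libraries left out); the cause was not tested. Rpl24, Rpl3l, Rpl36al and Rpl39l had too few reads for a comparison, and the cause of their low values was not tested. The libraries of a group may be technical replicates, the labels disagree with Alkbh5 and Apoe levels but not with Lyz2, and the differences between groups extend over most tested genes.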
